A study of Oryza sativa with 8 samples.

Results

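Rice seedlings of an SDG708 RNAi line were compared with wild-type seedlings after both had stood in polyethylene glycol (PEG). Levels are in FPKM, fragments per kilobase of gene scaled by a denominator set for each library. Loci were tested where FPKM was at least 1 in 2 or more of the 5 libraries. This filter kept 19502 of the 34119 loci in the table. The RNAi group held 3 libraries of 1 knockdown line, 708Ri-1-1, and the wild-type group 2 libraries of the line called NIP in the series. All plants were 14-day-old seedlings that had grown for 7 days on solid medium and another 7 in liquid, lit for 10 h at 30 °C and dark for 14 h at 28 °C, and all then spent 3 h in 20% PEG8000. The series also holds 3 libraries of wild-type seedlings without PEG, given below only as context. Whether the RNAi line carries an empty-vector counterpart, and which promoter drives its construct, the sources used here do not give, so the knockdown and other properties of this single line cannot be told apart. No RNAi seedlings without PEG were analysed here, so a difference between the lines cannot be divided into one present before PEG and one that arose in it.

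SDG708 encodes a SET-domain protein of a family that methylates lysines of histone H3, and in rice it is known for methylation along the body of transcribed genes, a mark that accompanies elongation by RNA polymerase. PEG of high molecular weight stays outside the cells and withdraws water through the roots. Water-deficient plants raise abscisic acid, and jasmonate, the hormone of wounding and pathogen attack, shares many targets with it. Jasmonate signalling is held down by JAZ proteins, which bind MYC transcription factors until the hormone triggers their degradation, and JAZ genes are themselves transcribed in response to jasmonate.

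Recovered reads numbered between 30817289 and 49706703 in the RNAi libraries and between 34392483 and 36370806 in the wild-type libraries. The libraries of a group lay close together. The median absolute difference in log2(FPKM + 1) over loci was 0.055 to 0.08 for the 3 pairs of RNAi libraries and 0.068 for the wild-type pair, and 0.152 to 0.168 for the 6 pairs that crossed the groups. The row of SDG708 was not analysed here, so the strength of the knockdown was not checked. The seedling label was set against tissue genes. The 3 antenna genes of leaf photosynthesis that could be named summed to 9733 to 10660 FPKM in RNAi and 12680 to 14090 FPKM in wild-type, and the root silicon transporters LSI1 and LSI2 to 9.31 to 9.73 FPKM in RNAi and 10.0 to 10.6 FPKM in wild-type. Seed storage genes, which a leaf or root should lack, summed to 43.2 to 50.0 FPKM in RNAi and 10.3 to 11.7 FPKM in wild-type. In such bulk seedlings fewer cells of a type and less RNA per cell cannot be told apart. Whether the replicates of a group are separate plants or cultures is not stated in the labels, so p-values measure only how far these libraries spread, and that spread may be technical.

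A large part of the transcriptome differed between RNAi and wild-type seedlings, mostly by a small amount. Of the 19502 loci 8337 passed (42.7%), 4878 of them higher (25.0%) and 3459 lower (17.7%) in RNAi, by limma on log2(FPKM + 1) with a Benjamini-Hochberg adjusted p under 0.05. The median absolute log2 fold change of the loci that passed was 0.32, which is 1.25-fold in FPKM + 1, and 82.1% of them differed by less than 1.5-fold in FPKM + 1. A difference of at least 2-fold in FPKM + 1, which leaves out low genes with a larger ratio of mean FPKM, was found for 261 loci that were higher (1.34% of those tested) and 122 that were lower (0.626%). Of these, 80 of the higher ones passed the filter through the RNAi libraries alone and 24 of the lower ones through the wild-type libraries alone. For such loci the filter itself selected the direction, so their difference is no support, though a call was not forced. Of the listed genes DREB1H and ZIP5 came through by the RNAi libraries alone and did not pass (limma adjusted p = 0.065 and 0.052). The 2 groups did not overlap in 12460 loci (63.9%), with 35.2% of loci wholly higher and 28.6% wholly lower in RNAi. The balance of directions depended on the scaling. With libraries scaled to total recovered reads 3803 loci were higher and 4696 lower, equal medians gave 4302 and 4081, and quantile normalization gave 3898 and 4206. Of the same loci, 8069 had in the authors' deposited table a p under 0.05, with 4591 log2 fold changes above 0 and 3478 below, and 7468 of them passed here in the same direction.

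**Figure D1:**
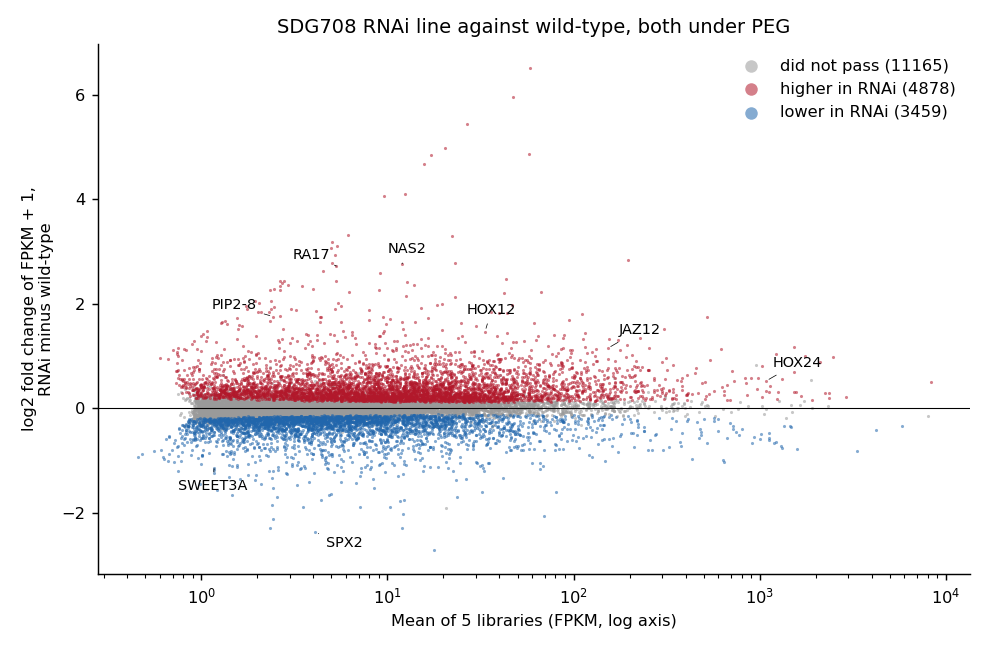
Log2 fold change of FPKM + 1 (RNAi minus wild-type) against the mean of the 5 libraries (FPKM, log axis), 1 point per tested locus. Red points (4878) were higher and blue points (3459) lower in RNAi by limma, and 11165 grey points did not pass. The genes marked by name are described in the text.

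The direction of the difference went with the level and with the length of the gene. Among the 651 loci at a mean of 100 FPKM or more, 50.1% were higher and 19.2% lower in RNAi. Among the 3735 loci under 2 FPKM, 15.2% were higher and 18.3% lower. Quantile normalization gives each library the same distribution of values, so it removes a shift that follows level by construction. Under it 35.9% were higher and 34.4% lower in the highest class and 14.7% and 17.0% in the lowest. Length, as recovered from the steps of the FPKM values, kept its gradient under each scaling. Of the loci that passed, 70.5% were higher in RNAi among those under 1000 bp and 36.8% among those of 8000 bp or more, and with quantile normalization these shares were 62.1% and 30.5%. Over the tested loci the median log2 fold change was 0.11 under 1000 bp and -0.039 at 8000 bp or more, and the part of level and length in the differences of single groups was not tested.

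**Figure D2:**
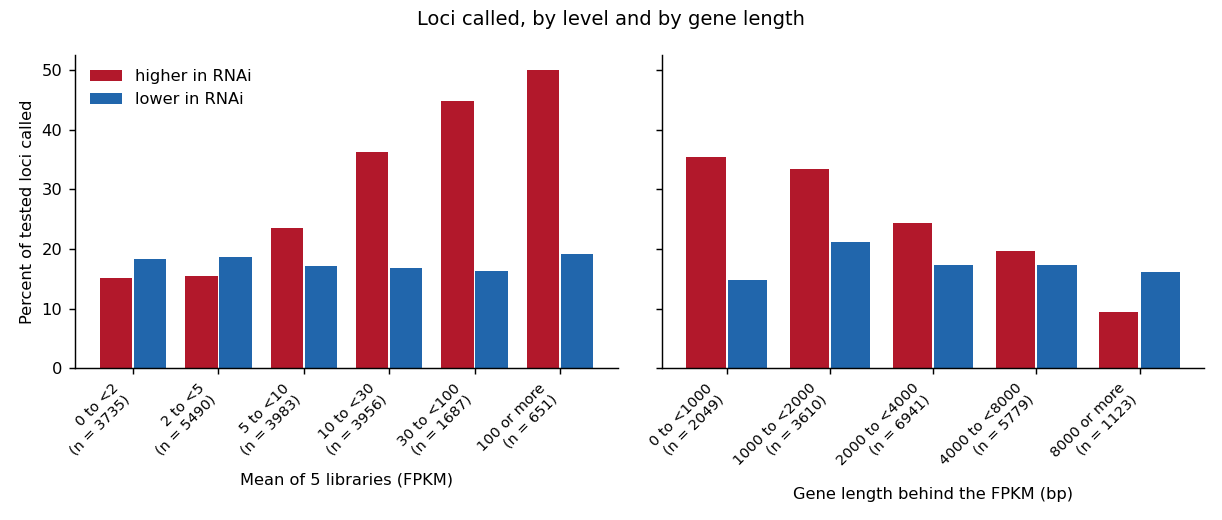
Percent of tested loci called higher (red, left bar) or lower (blue, right bar) in RNAi, by mean level of the 5 libraries in FPKM (left panel) and by gene length in bp (right panel), with the number of tested loci in each class. The share of higher loci is 50.1% at 100 FPKM or more and 15.2% under 2 FPKM, and 35.5% under 1000 bp and 9.44% at 8000 bp or more.

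Gene lists were drawn up by pathway with earlier results of these data known. From them 325 genes with a name held by the reference at the matching place were tested. Of these 145 were higher and 74 lower in RNAi, beside 25.0% and 17.7% of all loci. The listed genes are no random draw, so nothing is read from their surplus over all loci. The shares of all loci stand as background to each list count below. The list medians ran from -0.42 for potassium and sodium transport to 1.35 for seed storage among lists with 5 or more tested genes, and the median log2 fold change of all loci tested was 0.02. Of the 7 tested seed storage genes 3 came through the filter by the RNAi libraries alone, so the filter itself selected their direction.

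**Figure D3:**
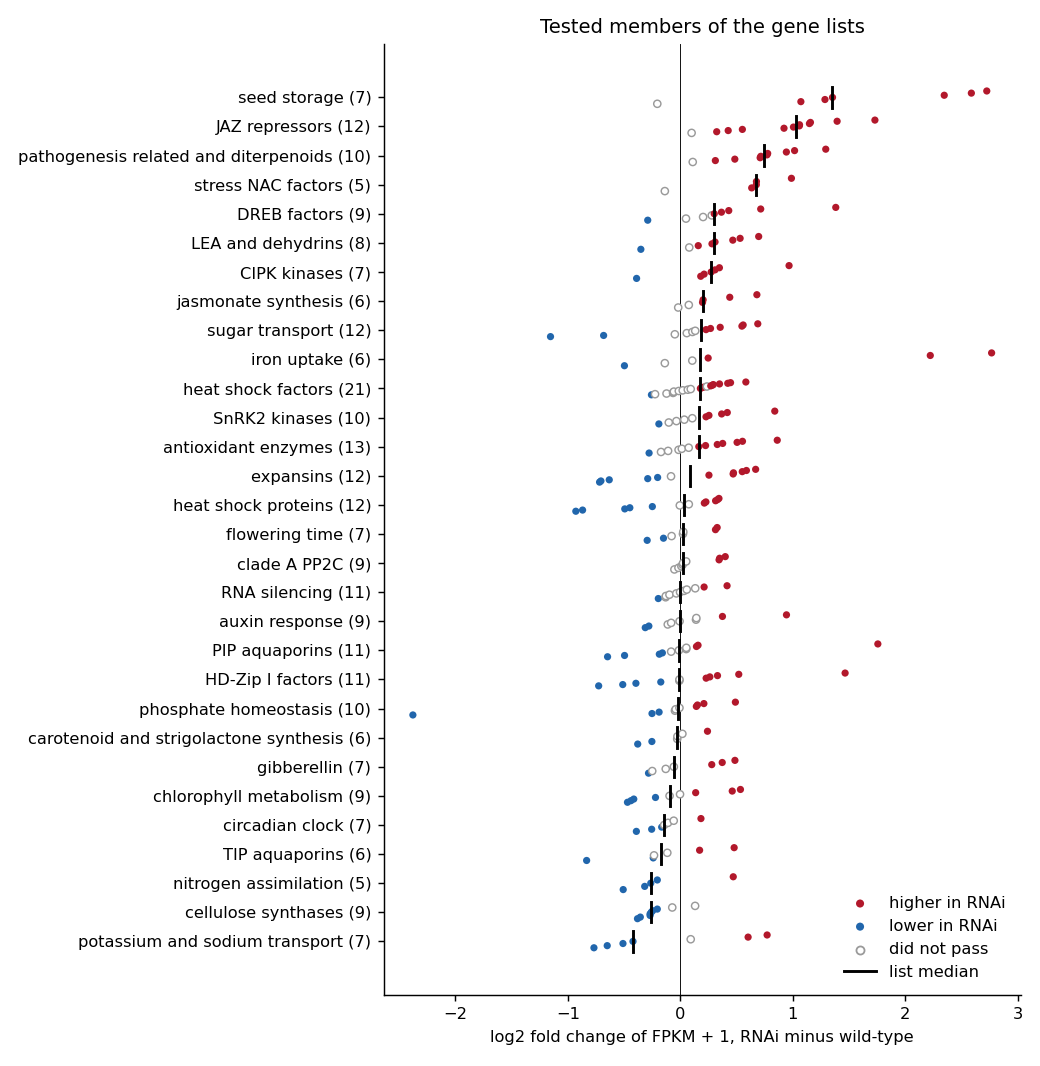
Log2 fold change of FPKM + 1 (RNAi minus wild-type) of each tested member of the lists with 5 or more tested members, whose number stands in parentheses. Red points were higher and blue points lower in RNAi, open points did not pass, and the black bar is the list median, with JAZ repressors at 1.03 and cellulose synthases at -0.26.

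Of the 12 tested JAZ repressor genes 11 were higher in the RNAi line and 0 lower (median log2 fold change 1.03), and the count was 11 under each of the 14 alternative settings. JAZ9 (LOC_Os03g08310) had 23.2, 20.3 and 26.2 FPKM in the RNAi libraries, against 6.21 and 6.34 FPKM in the wild-type libraries. Its log2 fold change was 1.73 ± 0.09 (SE, adjusted p by limma = 7.3e-06), and the groups did not overlap. JAZ10 (LOC_Os03g08330) had 104, 98.2 and 111 FPKM in RNAi, against 38.5 and 39.9 FPKM in wild-type, a log2 fold change of 1.39 ± 0.06 (SE, adjusted p by limma = 2.8e-06). JAZ12 (LOC_Os10g25290), the most abundant of the family, had 200.5, 184 and 202 FPKM in RNAi, against 86.5 and 88.9 FPKM in wild-type, a log2 fold change of 1.15 ± 0.05 (SE, adjusted p by limma = 4.3e-06). Every RNAi library lay above every wild-type library in these genes. JAZ11 (LOC_Os03g08320) and JAZ13 (LOC_Os10g25230) were higher by 2.1-fold and 2.4-fold in mean FPKM, and JAZ13 was uneven among the RNAi libraries, at 18.8, 15.7 and 24.7 FPKM. JAZ8 and JAZ6 were at 21 FPKM in RNAi and 9.96 FPKM in wild-type and at 67.4 FPKM in RNAi and 35.2 FPKM in wild-type. Lower log2 fold changes were found for JAZ7 (0.55), JAZ3 (0.42) and JAZ1 (0.32), which also passed. JAZ4 had 9.36, 9.03 and 9.86 FPKM in RNAi, against 8.35 and 9.1 FPKM in wild-type and did not pass (limma adjusted p = 0.19). JAZ5 had 2.75, 2.58 and 3.14 FPKM in RNAi, against 0.882 and 0.786 FPKM in wild-type. It came through the filter by the RNAi libraries alone, so the filter itself selected its direction. JAZ2 lay below the filter, with 0.171 to 0.231 FPKM in RNAi and 0.0251 to 0.0352 FPKM in wild-type. JAZ9, JAZ11 and JAZ10 follow one another on chromosome 3 as similar copies, so reads may be divided uncertainly among them. Wild-type seedlings without PEG had 0.509 FPKM of JAZ9, 9.35 FPKM of JAZ12 and 7.42 FPKM of JAZ4.

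Genes listed under jasmonate synthesis were higher in 4 and lower in 0 of 6 cases (median 0.20), and higher in 2 of 6 with quantile normalization. The 4 include OPR1, whose part in this pathway was not tested. AOS1 (LOC_Os03g55800), an allene oxide synthase of the step that commits fatty acids to jasmonate, had 18.2, 17.5 and 18.9 FPKM in RNAi, against 11 and 11 FPKM in wild-type. Its log2 fold change was 0.68 ± 0.05 (SE, adjusted p by limma = 2.4e-05), without overlap. OPR7, the oxophytodienoate reductase of the pathway, was higher by 1.38-fold, and OPR1 and AOC by 1.15-fold and 1.15-fold. Quantile normalization ended the calls of OPR1 and AOC. OPR1 lost its call without wild-type replicate 2 (adjusted p by limma = 0.081). AOS2 was at 17.9 FPKM in RNAi and 17 FPKM in wild-type, and JAR1, which joins jasmonate to isoleucine to make the active hormone, at 10.2 FPKM in RNAi and 10.4 FPKM in wild-type, and neither passed (limma adjusted p = 0.29 and 0.79).

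Defence genes stood higher in the RNAi line as well. Of 10 tested genes of pathogenesis-related proteins and diterpenoid phytoalexins, 9 were higher and 0 lower (median 0.74), and the count was 9 under each alternative setting. Of these 9, 2 (CPS2 and KSL7) came through the filter by the RNAi libraries alone, so the filter itself selected their direction. The steady count says nothing of those 2. PBZ1 (LOC_Os12g36880), a small intracellular pathogenesis-related protein, had 72, 63.6 and 79.1 FPKM in the RNAi libraries, against 27.2 and 29.8 FPKM in the wild-type libraries. The log2 fold change was 1.29 ± 0.09 (SE, adjusted p by limma = 2.2e-05). CHT1 (LOC_Os06g51060), a chitinase, had 193, 181 and 177 FPKM in RNAi, against 105 and 109 FPKM in wild-type, a log2 fold change of 0.78 ± 0.05 (SE, adjusted p by limma = 1.9e-05). In both genes the groups lay apart. On chromosome 4 the genes for momilactone synthesis form a cluster in rice, and its 5 listed members were higher. Among them the cytochrome P450 gene CYP99A2 (LOC_Os04g10160) had 12.2, 12.4 and 12.2 FPKM in RNAi, against 5.75 and 5.4 FPKM in wild-type, a log2 fold change of 1.01 ± 0.05 (SE, adjusted p by limma = 3.9e-06). CYP99A3 and MAS were higher by 2.0-fold and 1.71-fold, and the diterpene synthase genes CPS4 and KSL4 by 1.61-fold and 1.4-fold. Another cluster, on chromosome 2, makes phytocassanes. Its genes CPS2 and KSL7 had 0.922, 1.03 and 1.21 FPKM in RNAi, against 0.0513 and 0.0843 FPKM in wild-type, and 1.28, 1.37 and 1.35 FPKM in RNAi, against 0.48 and 0.381 FPKM in wild-type, and both came through the filter by the RNAi libraries alone. NPR1, the coactivator of salicylic acid responses, was at 3.92 FPKM in RNAi and 3.55 FPKM in wild-type and did not pass (limma adjusted p = 0.15).

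**Figure D4:**
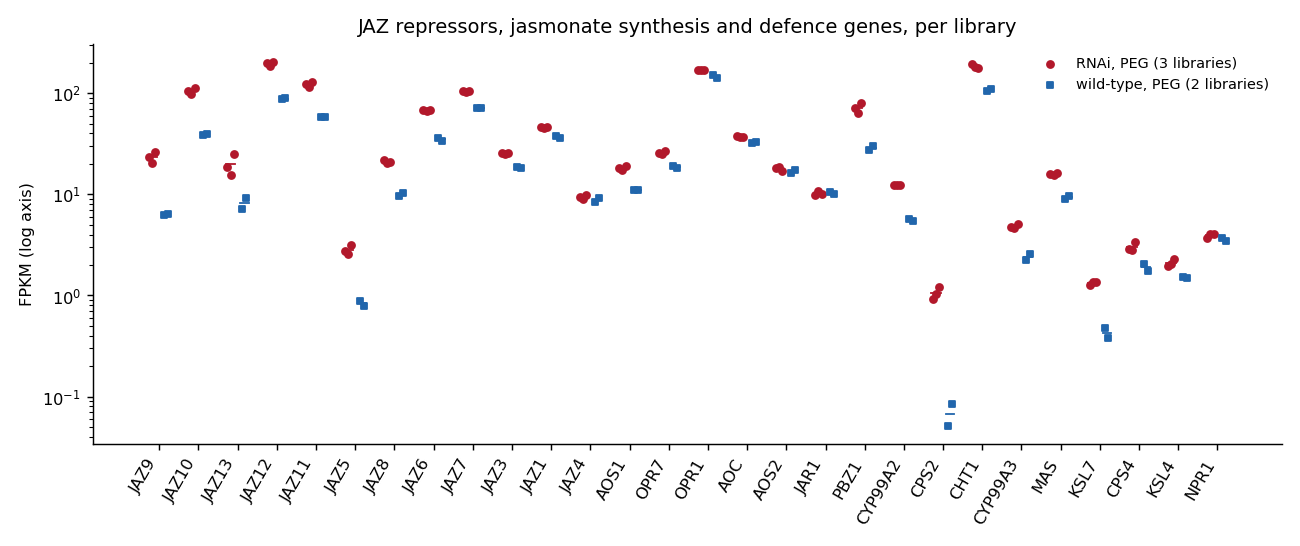
FPKM (log axis) of JAZ repressors, jasmonate synthesis and defence genes in each library, with the 3 RNAi libraries as red circles left of the 2 wild-type libraries as blue squares and short lines for the group means. JAZ9 is at 20.3 to 26.2 FPKM in RNAi and 6.21 to 6.34 FPKM in wild-type, while JAZ4, AOS2, JAR1 and NPR1 did not pass the test.

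Other hormone genes moved less evenly. In ethylene synthesis ACS2 (LOC_Os04g48850), which makes the precursor, had 13.2, 12.6 and 12.2 FPKM in RNAi, against 6.47 and 6.01 FPKM in wild-type, a log2 fold change of 0.92 ± 0.05 (SE, adjusted p by limma = 1.0e-05), and the oxidase gene ACO1 was higher by 1.36-fold. ACS1 was at 3.31 FPKM in RNAi and 2.81 FPKM in wild-type and did not pass (limma adjusted p = 0.13). Auxin response genes were higher in 2 and lower in 2 of 9 cases. GH3-8 (LOC_Os07g40290), which conjugates auxin to amino acids, had 13.5, 13.7 and 13.9 FPKM in RNAi, against 6.84 and 6.43 FPKM in wild-type, a log2 fold change of 0.94 ± 0.05 (SE, adjusted p by limma = 5.2e-06), IAA19 was higher by 1.31-fold, and IAA3 was at 0.818 of wild-type. IAA1 was at 30.1 FPKM in RNAi and 32.6 FPKM in wild-type and did not pass. With total recovered reads or quantile normalization 4 auxin genes were lower. Gibberellin genes were higher in 3 and lower in 1 of 7 cases, with KAO and the receptor gene GID1 higher by 1.78-fold and 1.3-fold, the repressor gene SLR1 by 1.22-fold and KS1 at 0.785 of wild-type. The lower count was 0 without wild-type replicate 1 and 4 with total recovered reads. With quantile normalization SLR1 did not pass (adjusted p by limma = 0.078). GID2 was at 30.4 FPKM in RNAi and 31.7 FPKM in wild-type and did not pass. In abscisic acid synthesis and breakdown NCED3 and ABA8ox1 were higher by 1.54-fold and 1.44-fold and ZEP1 and ABA8ox3 were at 0.744 and 0.578 of wild-type. ABA8ox2 was at 16.7 FPKM in RNAi and 17.4 FPKM in wild-type and did not pass (limma adjusted p = 0.34). Other listed loci of abscisic acid synthesis could not be named and are not described by pathway, so these genes do not stand for it. Type-A response regulators of cytokinin split too, with RR4 higher by 1.35-fold, RR2 at 0.805 of wild-type and RR6 at 9.86 FPKM in RNAi and 9.48 FPKM in wild-type. RR2 lost its call without wild-type replicate 1 (adjusted p by limma = 0.07), as did KS1 without wild-type replicate 1 (adjusted p by limma = 0.063).

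The named NAC, DREB and WRKY transcription factors were mostly higher in the RNAi line. Only 4 of 28 listed WRKY loci and 5 of 10 listed NAC loci could be named, so they do not stand for their families. Stress NAC factors were higher in 4 and lower in 0 of 5 cases (median 0.68). NAC5 (LOC_Os11g08210) had 117, 116 and 125 FPKM in RNAi, against 59.5 and 59.8 FPKM in wild-type, a log2 fold change of 0.99 ± 0.05 (SE, adjusted p by limma = 4.9e-06). NAC6, NAC4 and NAC3 were higher by 1.6-fold, 1.62-fold and 1.56-fold, and NAC45 was at 1.84 FPKM in RNAi and 2.13 FPKM in wild-type and did not pass. DREB factors, which bind the dehydration-responsive element, were higher in 5 and lower in 1 of 9 cases (median 0.30). DREB1C (LOC_Os06g03670) had 52.4, 45.6 and 57.7 FPKM in RNAi, against 18 and 20.5 FPKM in wild-type, a log2 fold change of 1.38 ± 0.10 (SE, adjusted p by limma = 2.6e-05). DREB1J and DREB2A were higher by 1.74-fold and 1.39-fold, DREB2C was at 0.765 of wild-type, and DREB2B was at 16.4 FPKM in RNAi and 15.8 FPKM in wild-type and did not pass. DREB2C lost its call without wild-type replicate 1 (adjusted p by limma = 0.085). WRKY factors, regulators of defence, were higher in 3 of 4 named cases, with WRKY24 (LOC_Os01g61080) at 24.8 FPKM in RNAi and 14.8 FPKM in wild-type, a log2 fold change of 0.70 ± 0.04 (SE, adjusted p by limma = 1.5e-05), WRKY71 higher by 1.46-fold and WRKY76 by 1.34-fold. WRKY62 was at 14.9 FPKM in RNAi and 14.7 FPKM in wild-type and did not pass.

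Homeodomain-leucine zipper class I (HD-Zip I) factors divided. Of 11 genes 5 were higher and 4 lower (median -0.01). HOX12 (LOC_Os03g10210) had 44.6, 44.4 and 46.6 FPKM in RNAi, against 15.2 and 16.3 FPKM in wild-type, a log2 fold change of 1.46 ± 0.05 (SE, adjusted p by limma = 9.4e-07). HOX24 (LOC_Os02g43330), the most abundant member, had 1245, 1161 and 1279 FPKM in RNAi, against 831 and 882 FPKM in wild-type, a log2 fold change of 0.52 ± 0.06 (SE, adjusted p by limma = 4.1e-04), where wild-type without PEG had 2.54 FPKM. In the other direction HOX20 (LOC_Os08g37580) had 7.37, 7.25 and 7.3 FPKM in RNAi, against 12.5 and 13 FPKM in wild-type, a log2 fold change of -0.73 ± 0.04 (SE, adjusted p by limma = 1.3e-05), and HOX16 and HOX13 were at 0.7 and 0.75 of wild-type. HOX6 was at 42.3 FPKM in RNAi and 42.5 FPKM in wild-type and did not pass. Without wild-type replicate 1 or without RNAi replicate 1 the higher genes numbered 3, while HOX12, HOX24 and HOX5 passed under each alternative. Heat shock factors were higher in 10 and lower in 1 of 21 cases, HSFA2D (median 0.18), and 6 were higher without wild-type replicate 2. HSFA2D lost its call without wild-type replicate 2 or RNAi replicate 1 or 3 (highest adjusted p by limma = 0.18). HSFC1B (LOC_Os01g53220) and HSFA2A (LOC_Os03g53340) led, at 6.01 FPKM in RNAi and 3.68 FPKM in wild-type and at 15.5 FPKM in RNAi and 11.1 FPKM in wild-type, with log2 fold changes of 0.58 ± 0.06 (SE, adjusted p by limma = 2.4e-04) and 0.45 ± 0.05 (SE, adjusted p by limma = 2.1e-04). HSFC2A, at 38.9 FPKM in RNAi and 40.6 FPKM in wild-type, did not pass.

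Heat shock proteins divided. Of 12 genes 5 were higher and 5 lower (median 0.04). The cytosolic class I genes on chromosome 3, HSP18.1, HSP17.3, HSP17.9A and HSP17.7, were higher by 1.27-fold, 1.26-fold, 1.24-fold and 1.16-fold. On chromosome 1 the class I genes HSP16.9A, HSP16.9B and HSP16.9C were lower, at 0.818, 0.679 and 0.693 of wild-type. HSP26.7 (LOC_Os03g14180), whose protein enters the chloroplast, had 4.04, 4.59 and 4.48 FPKM in RNAi, against 9.21 and 9.23 FPKM in wild-type, a log2 fold change of -0.93 ± 0.06 (SE, adjusted p by limma = 1.4e-05). HSP23.2 (LOC_Os04g36750) had 6.05, 4.29 and 5.84 FPKM in RNAi, against 10.4 and 10.8 FPKM in wild-type, a log2 fold change of -0.87 ± 0.12 (SE, adjusted p by limma = 6.4e-04). The RNAi values of both lay below the wild-type values. HSP81-1 was higher by 1.17-fold, and BIP1 of the endoplasmic reticulum was at 52.5 FPKM in RNAi and 52.6 FPKM in wild-type and did not pass. HSP16.9A lost its call without wild-type replicate 1 or RNAi replicate 1 or 3 (highest adjusted p by limma = 0.25), as did HSP16.9C without wild-type replicate 1 (adjusted p by limma = 0.082) and HSP81-1 without wild-type replicate 2 (adjusted p by limma = 0.062). Without wild-type replicate 1 there were 3 lower, and quantile normalization left 3 higher, ending the call of HSP17.7. Both clusters hold similar copies, whose reads may be divided uncertainly.

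Kinases and protective proteins were higher more often than lower in the RNAi line. So were all tested loci, of which 25.0% were higher and 17.7% lower. From 10 to under 30 FPKM these shares were 36.3% and 16.9%, and at 100 FPKM or more 50.1% and 19.2%. The part of level in the counts of these lists was not tested. Calcineurin B-like interacting protein kinases (CIPK), which relay calcium signals, were higher in 6 and lower in 1 of 7 cases (median 0.27). CIPK15 (LOC_Os11g02240), known in rice for its part in sugar and oxygen starvation, had 65.3, 65.3 and 66.1 FPKM in RNAi, against 34.2 and 32 FPKM in wild-type, a log2 fold change of 0.97 ± 0.04 (SE, adjusted p by limma = 4.1e-06). CIPK23 and CIPK2 were higher by 1.28-fold and 1.24-fold. CIPK12 had 0.681, 0.853 and 0.736 FPKM in RNAi, against 1.24 and 1.36 FPKM in wild-type, and came through the filter by the wild-type libraries alone. SnRK2 kinases of abscisic acid and osmotic signalling were higher in 5 and lower in 1 of 10 cases, SAPK5, and SAPK2 (LOC_Os07g42940) had 22.3, 21.7 and 23.5 FPKM in RNAi, against 12.2 and 12 FPKM in wild-type, a log2 fold change of 0.84 ± 0.05 (SE, adjusted p by limma = 1.0e-05). SAPK4 was at 34.6 FPKM in RNAi and 37.2 FPKM in wild-type and did not pass, although quantile normalization put 3 SnRK2 genes lower. Late embryogenesis abundant proteins and dehydrins were higher in 6 and lower in 1 of 8 cases, RAB16D (median 0.29). The higher genes numbered 3 with replicate number as a block. RAB21 lost its call without either wild-type replicate or RNAi replicate 1, 2 or 3 (highest adjusted p by limma = 0.19). LIP9 and RAB16C were higher by 1.62-fold and 1.45-fold, EM by 1.41-fold, and LEA3-2 was at 349 FPKM in RNAi and 331 FPKM in wild-type and did not pass. Clade A PP2C genes, which check abscisic acid signalling, were higher in 3 and lower in 0 of 9 cases, led by PP2C30 at 1.32-fold, and PP2C09 was at 363 FPKM in RNAi and 361 FPKM in wild-type and did not pass. With quantile normalization 2 PP2C genes were lower. BZIP23 and PYL11 were higher by 1.11-fold and 1.14-fold (limma adjusted p = 0.037 and 0.014), and TRAB1 did not pass. BZIP23 lost its call without either wild-type replicate or RNAi replicate 1 or 3 (highest adjusted p by limma = 0.18), as did PYL11 without wild-type replicate 1 (adjusted p by limma = 0.099).

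Antioxidant enzymes were higher in 7 and lower in 1 of 13 cases, APX4 (median 0.16). Most of these genes averaged 30 FPKM or more. Of all tested loci from 30 to under 100 FPKM 44.8% were higher and 16.3% lower. At 100 FPKM or more these shares were 50.1% and 19.2%, so the count lies near that of other loci at such levels. The superoxide dismutase genes led. SODCC2 (LOC_Os07g46990) had 92.1, 86.2 and 94.8 FPKM in RNAi, against 50.2 and 49.1 FPKM in wild-type, a log2 fold change of 0.86 ± 0.05 (SE, adjusted p by limma = 1.2e-05), and the groups lay apart. SODCP and SODCC1 were higher by 1.48-fold and 1.43-fold, and the catalase genes CATB and CATA by 1.3-fold and 1.17-fold. With quantile normalization CATA did not pass (adjusted p by limma = 0.52). APX2, an ascorbate peroxidase of the cytosol, was at 252 FPKM in RNAi and 249 FPKM in wild-type and did not pass. With total recovered reads or equal medians 3 antioxidant genes were lower, and with quantile normalization 4.

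Cellulose synthase genes and those nitrogen genes that could be named and tested were mostly lower in the RNAi line. Cellulose synthases were lower in 7 and higher in 0 of 9 cases (median -0.26), and without wild-type replicate 1 they were lower in 3. CESA8 (LOC_Os07g10770) and CESA1 (LOC_Os05g08370), subunits of the complex of the primary wall, had 19.1, 20.1 and 19.2 FPKM in RNAi, against 26.8 and 24.5 FPKM in wild-type, and 16.5, 17.8 and 15.9 FPKM in RNAi, against 22.6 and 20.9 FPKM in wild-type. Their log2 fold changes were -0.38 ± 0.05 (SE, adjusted p by limma = 7.3e-04) and -0.36 ± 0.06 (SE, adjusted p by limma = 0.002). CESA4 and CESA7 of the secondary wall were at 0.817 and 0.827 of wild-type, and CESA9, of the same complex, was at 13.8 FPKM in RNAi and 14.5 FPKM in wild-type and did not pass. These genes are long, with a median of 5852 bp, and of all tested loci from 4000 to under 8000 bp 17.4% were lower and 19.7% higher. CESA4 lost its call without wild-type replicate 1 (adjusted p by limma = 0.081). Of 12 expansins, which loosen walls, 6 were higher and 5 lower. EXPB4 (LOC_Os10g40730) and EXPA4 were higher by 1.62-fold and 1.58-fold, and EXPA3 (LOC_Os05g19570) and EXPB6 were at 0.428 and 0.579 of wild-type. EXPB2 was at 10.9 FPKM in RNAi and 11.6 FPKM in wild-type and did not pass, and without wild-type replicate 2 the lower genes numbered 3.

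In chlorophyll metabolism 3 of 9 genes were higher and 4 lower. On the side of synthesis CHLH, the large subunit of the magnesium chelatase, had 33.1, 37.2 and 32.3 FPKM in RNAi, against 49.3 and 46.1 FPKM in wild-type, a log2 fold change of -0.47 ± 0.07 (SE, adjusted p by limma = 9.2e-04). PORA, the light-dependent protochlorophyllide reductase, had 63.7, 57.4 and 61.9 FPKM in RNAi, against 77.5 and 85.7 FPKM in wild-type, a log2 fold change of -0.41 ± 0.06 (SE, adjusted p by limma = 0.0012). GLK1 and GLK2, transcription factors of chloroplast development, were at 0.733 and 0.851 of wild-type. On the side of breakdown NYC1 (LOC_Os01g12710), a chlorophyll b reductase, had 84.2, 85 and 82 FPKM in RNAi, against 59.4 and 55.6 FPKM in wild-type, and SGR (LOC_Os09g36200), which takes magnesium from chlorophyll a, had 83.8, 78.2 and 80.9 FPKM in RNAi, against 56.9 and 60.2 FPKM in wild-type. Their log2 fold changes were 0.53 ± 0.05 (SE, adjusted p by limma = 7.3e-05) and 0.46 ± 0.05 (SE, adjusted p by limma = 2.0e-04), and no RNAi library overlapped with wild-type in either. CHLG, a chlorophyll synthase on the side of synthesis, was higher by 1.12-fold, and CHLI was at 18.4 FPKM in RNAi and 19.8 FPKM in wild-type and did not pass. CHLG lost its call without either wild-type replicate or RNAi replicate 1, 2 or 3 (highest adjusted p by limma = 0.15), as did GLK2 without wild-type replicate 2 (adjusted p by limma = 0.077). The antenna genes CAB2R, CAB1R and RCABP89 were lower, at 0.752, 0.787 and 0.778 of wild-type, and of these 1 was lower with quantile normalization or without a filter on low values. The count was 0 with replicate number as a block. CAB1R lost its call without wild-type replicate 2 (adjusted p by limma = 0.11). Antenna genes are near-identical copies and their separate values are uncertain.

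Nitrogen assimilation genes were lower in 4 and higher in 1 of 5 cases. FD-GOGAT (LOC_Os07g46460), the ferredoxin-dependent glutamate synthase of leaves, had 32.8, 35.3 and 33.8 FPKM in RNAi, against 49.6 and 47.7 FPKM in wild-type, a log2 fold change of -0.51 ± 0.05 (SE, adjusted p by limma = 1.1e-04). The chloroplast glutamine synthetase gene GLN2 and the cytosolic GLN1-1 were at 0.8 and 0.831 of wild-type and the nitrate reductase gene NIA1 at 0.855, while the cytosolic GLN1-2 was higher by 1.42-fold. NIA1 lost its call without wild-type replicate 1 (adjusted p by limma = 0.069), as did AMT2-1 without either wild-type replicate (highest adjusted p by limma = 0.072). Of 4 tested nitrogen transporters, all of them ammonium transporters, 3 were lower and 0 higher. Another 5 named genes of that list lay below the filter, and none of them was wholly lower in RNAi. Among them NRT2.3 was at 0.480 to 0.513 FPKM in RNAi and 0.351 to 0.405 FPKM in wild-type. NAR2.1 was at 0.653 to 0.788 FPKM in RNAi and 0.531 to 0.624 FPKM in wild-type. The assimilation gene GLN1-3, also below the filter, was at 0.807 to 0.823 FPKM in RNAi and 0.468 to 0.542 FPKM in wild-type. AMT1-1 (LOC_Os04g43070), an ammonium transporter, had 15.3, 17 and 16.6 FPKM in RNAi, against 28.8 and 28.4 FPKM in wild-type, a log2 fold change of -0.78 ± 0.05 (SE, adjusted p by limma = 2.1e-05). AMT3-1 and AMT2-1 were at 0.455 and 0.797 of wild-type. AMT1-3 had 2.02, 1.41 and 1.48 FPKM in RNAi, against 1.28 and 0.886 FPKM in wild-type, and did not pass (limma adjusted p = 0.052). Wild-type seedlings without PEG had 43.7 FPKM of AMT1-1 and 64.3 FPKM of FD-GOGAT.

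Potassium and sodium transport genes were lower in 4 and higher in 2 of 7 cases, with the same counts under each alternative (median -0.42). The channel gene AKT1 (LOC_Os01g45990) had 7.58, 7.74 and 7.91 FPKM in RNAi, against 13.2 and 12.2 FPKM in wild-type, a log2 fold change of -0.65 ± 0.05 (SE, adjusted p by limma = 4.2e-05). The sodium transporter genes HKT6 and HKT4 were at 0.46 and 0.738 of wild-type. The HAK genes did not share one direction. HAK16 was lower like the channel, at 0.668 of wild-type. The high-affinity potassium transporter genes HAK5 (LOC_Os01g70490) and HAK1 (LOC_Os04g32920) were higher. HAK5 had 2.76, 2.81 and 2.98 FPKM in RNAi, against 1.18 and 1.34 FPKM in wild-type. HAK1 had 13.4, 13.2 and 14.4 FPKM in RNAi, against 8.9 and 8.46 FPKM in wild-type. The log2 fold changes of HAK5 and HAK1 were 0.77 ± 0.06 (SE, adjusted p by limma = 4.8e-05) and 0.60 ± 0.05 (SE, adjusted p by limma = 7.4e-05), without overlap. HKT1 was at 15.4 FPKM in RNAi and 14.4 FPKM in wild-type and did not pass.

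**Figure D5:**
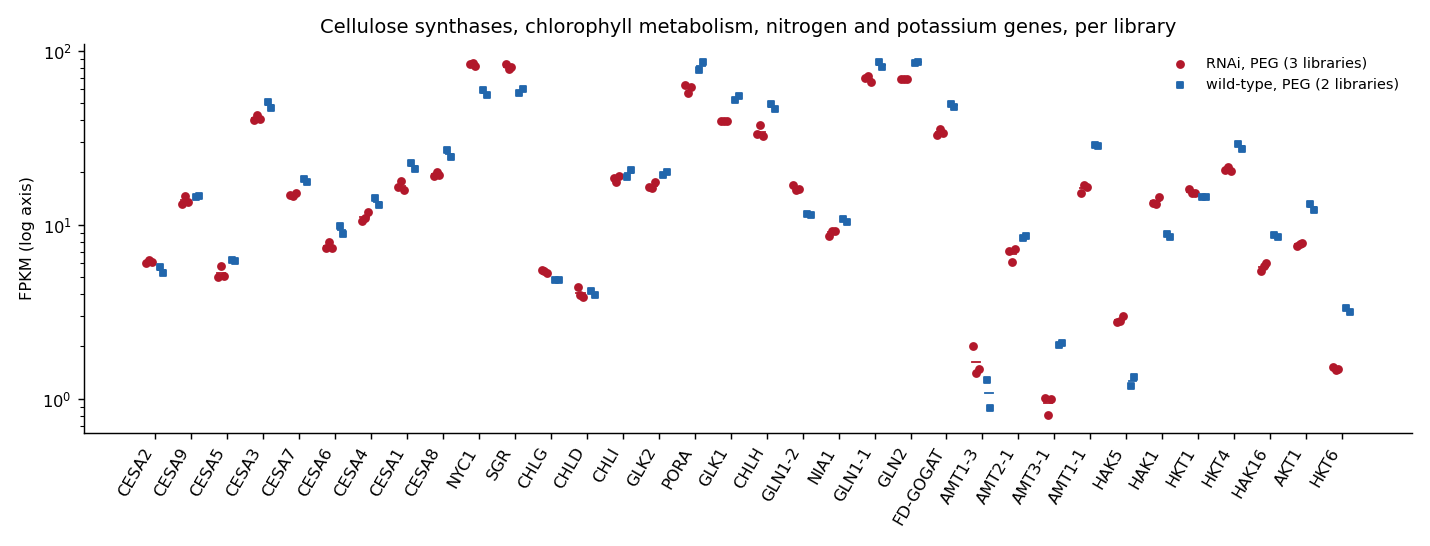
FPKM (log axis) of cellulose synthase, chlorophyll metabolism, nitrogen and potassium or sodium transport genes in each library, with the 3 RNAi libraries as red circles left of the 2 wild-type libraries as blue squares and short lines for the group means. AKT1 is at 7.58 to 7.91 FPKM in RNAi and 12.2 to 13.2 FPKM in wild-type, and NYC1 at 82.0 to 85.0 FPKM in RNAi and 55.6 to 59.4 FPKM in wild-type.

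Single genes of metal, phosphate, sugar and water transport were among the largest differences of all named genes. NAS2 (LOC_Os03g19420) and its neighbour NAS1 (LOC_Os03g19427) encode nicotianamine synthases, which make a chelator of iron and other metals. NAS2 had 19.6, 17.4 and 19.1 FPKM in the RNAi libraries, against 2.04 and 1.75 FPKM in the wild-type libraries. Its log2 fold change was 2.77 ± 0.07 (SE, adjusted p by limma = 2.4e-07). NAS1 had 9.2, 9.22 and 9.91 FPKM in RNAi, against 1.84 and 0.769 FPKM in wild-type, a log2 fold change of 2.22 ± 0.17 (SE, adjusted p by limma = 3.7e-05). The RNAi values lay above the wild-type values in both genes, which are similar copies, and wild-type without PEG had 27 and 25.7 FPKM. Of the 6 tested iron genes IRO3 was also higher, by 1.22-fold, YSL16, which moves metal-nicotianamine complexes, was at 0.675 of wild-type, and NAS3 was at 24.4 FPKM in RNAi and 27 FPKM in wild-type and did not pass. IRO3 lost its call without wild-type replicate 2 (adjusted p by limma = 0.058), as did SPX1 without wild-type replicate 1 (adjusted p by limma = 0.072). SPX2 (LOC_Os02g10780), an inhibitor of the phosphate starvation regulators, had 1.0, 0.726 and 0.968 FPKM in the RNAi libraries, against 8.8 and 8.88 FPKM in the wild-type libraries. The log2 fold change was -2.38 ± 0.07 (SE, adjusted p by limma = 7.3e-07), the second largest fall among the loci that passed. Phosphate genes were otherwise higher in 4 and lower in 2 of 9 further cases. PHT1-2, at 1.15, 0.904 and 1.39 FPKM in RNAi, against 0.499 and 0.548 FPKM in wild-type, came through the filter by the RNAi libraries alone, SPX1 was at 0.802 of wild-type, and PHT1-8 was at 36.5 FPKM in RNAi and 37.8 FPKM in wild-type and did not pass. The number of higher phosphate genes was 1 without wild-type replicate 2 and 2 without RNAi replicate 1 or 3.

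Sugar transport genes were higher in 6 and lower in 2 of 12 cases (median 0.18). SWEET15 (LOC_Os02g30910), a sugar exporter, had 205, 195 and 207 FPKM in RNAi, against 122 and 129 FPKM in wild-type, a log2 fold change of 0.69 ± 0.05 (SE, adjusted p by limma = 2.8e-05). SWEET4 and SWEET2A were higher by 1.49-fold and 1.53-fold and the sucrose importer gene SUT1 by 1.29-fold. SWEET3A (LOC_Os05g12320) had 0.46, 0.505 and 0.406 FPKM in RNAi, against 2.29 and 2.19 FPKM in wild-type, and came through the filter by the wild-type libraries alone. SWEET2B had 5.22, 5.71 and 6.97 FPKM in RNAi, against 9.87 and 10.4 FPKM in wild-type, a log2 fold change of -0.68 ± 0.10 (SE, adjusted p by limma = 9.2e-04), and SUT2 was at 28.8 FPKM in RNAi and 26.7 FPKM in wild-type and did not pass. Plasma membrane aquaporins of the PIP family were higher in 3 and lower in 4 of 11 cases. PIP2-8 (LOC_Os03g64330) had 4.22, 3.53 and 3.59 FPKM in RNAi, against 0.438 and 0.39 FPKM in wild-type, by the RNAi libraries alone through the filter. PIP2-5 and PIP2-4 were at 0.611 and 0.701 of wild-type, and PIP1-2 was at 766 FPKM in RNAi and 772 FPKM in wild-type and did not pass. Without either wild-type replicate or RNAi replicate 1 the higher count was 1, PIP2-8, and without wild-type replicate 2 or RNAi replicate 1 or 3 the lower count was 2. Vacuolar TIP aquaporins were higher in 2 and lower in 2 of 6 cases, with TIP2-1 (LOC_Os02g44080) at 31.5, 31.5 and 35 FPKM in RNAi, against 60.4 and 57.5 FPKM in wild-type and TIP2-2 higher by 1.39-fold, and TIP4-2 was at 12.8 FPKM in RNAi and 13.9 FPKM in wild-type and did not pass. The higher count was 1 without either wild-type replicate or RNAi replicate 1 or 2, and the lower count was 1 without wild-type replicate 2.

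Seed storage transcripts were higher in the RNAi libraries. Of 10 named genes 7 passed the filter, 3 of them through the RNAi libraries alone, 6 were higher and 0 lower, and the median was 1.35. These genes are short, with a median of 976 bp. The seed albumin gene RA17 (LOC_Os07g11410) had 8.53, 8.0 and 9.15 FPKM in RNAi, against 0.395 and 0.499 FPKM in wild-type. Its neighbour RAG1 had 13.3, 13.8 and 15.3 FPKM in RNAi, against 1.91 and 1.17 FPKM in wild-type, a log2 fold change of 2.59 ± 0.12 (SE, adjusted p by limma = 3.9e-06). The glutelin genes GLUA1 and GLUA2 had 5.24, 5.76 and 5.76 FPKM in RNAi, against 0.452 and 0.156 FPKM in wild-type, and 4.32, 4.34 and 4.47 FPKM in RNAi, against 1.34 and 0.898 FPKM in wild-type. RA17, GLUA1 and GLUB5 came through the filter by the RNAi libraries alone, so the filter itself selected their direction. RAG1 and GLUA2 lay apart between the groups. RAG2 was higher by 3.33-fold. GLUB4 and GLUA3, below the filter, were at 0.402 to 0.475 and 0.649 to 0.810 FPKM in RNAi, and in wild-type GLUB4 was listed at 0 in both libraries and GLUA3 in 1 of 2. All 10 genes had reads in each RNAi library, against 9 and 8 in the wild-type libraries. The oleosin gene OLE18, of seed oil bodies, did not pass, with 4.96, 3.94 and 6.2 FPKM in RNAi, against 4.91 and 7.0 FPKM in wild-type (limma adjusted p = 0.36). The part of seed transcripts in the other differences was not tested. Starch-degrading alpha-amylase genes did not share one direction. RAMY3D, known for its rise under sugar starvation, had 5.27, 5.56 and 5.47 FPKM in RNAi, against 11.4 and 11.2 FPKM in wild-type, a log2 fold change of -0.93 ± 0.05 (SE, adjusted p by limma = 5.5e-06), RAMY3E was at 0.715 of wild-type, RAMY3A lay below the filter, and RAMY3B, by the RNAi libraries alone through the filter, had 1.96, 1.85 and 2.11 FPKM in RNAi, against 0.318 and 0.391 FPKM in wild-type.

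The largest differences fell on loci without a name in the tables used. LOC_Os11g40530 had 104, 86 and 104 FPKM in RNAi, against 0.101 and 0.0539 FPKM in wild-type, and LOC_Os07g32710 80.0, 72.4 and 84.7 FPKM in RNAi, against 0.248 and 0.326 FPKM in wild-type. The log2 fold changes were 6.51 ± 0.08 (SE, adjusted p by limma = 8.9e-09) and 5.96 ± 0.07 (SE, adjusted p by limma = 5.6e-09). Both came through the filter by the RNAi libraries alone, so the filter itself selected their direction. Wild-type without PEG averaged 0.0154 FPKM of LOC_Os11g40530 and 0.805 FPKM of LOC_Os07g32710. In the other direction LOC_Os06g38450 had 4.73, 5.2 and 4.61 FPKM in RNAi, against 37.1 and 37.6 FPKM in wild-type, and LOC_Os11g47240 0.381, 0.3 and 0.258 FPKM in RNAi, against 5.14 and 5.67 FPKM in wild-type. Their log2 fold changes were -2.71 ± 0.05 (SE, adjusted p by limma = 1.0e-07) and -2.29 ± 0.07 (SE, adjusted p by limma = 6.7e-07). LOC_Os11g47240 came through the filter by the wild-type libraries alone, so the filter itself selected its direction. Along the chromosomes the share of loci that passed ran from 40.0% on chromosome 8 to 44.4% on chromosomes 1 and 10, against 42.7% over all. At least 3 tested neighbours in locus order were at least 2-fold higher in FPKM + 1 together at 5 places, and lower together at 0. These were the 3 JAZ genes on chromosome 3, runs of 4 and 5 loci around the seed albumin genes on chromosome 7, and 1 further run of 3 loci each on chromosomes 7 and 10. In the 3 runs on chromosome 7, 3 of 4, 4 of 5 and 3 of 3 loci came through the filter by the RNAi libraries alone. The filter itself selected the direction of these loci, and nothing is read from the count of places. In the run that holds LOC_Os07g32710 no locus had a wild-type mean above 0.287 FPKM, and the RNAi means were 3.90 to 79.0 FPKM.

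Several groups stayed near the background or were too small to read. The constitutive genes ACT1, GAPC2 and REFA1 were at 1.09, 0.991 and 0.971 of wild-type and none passed (limma adjusted p = 0.069, 0.81 and 0.53), while quantile normalization put 2 of them lower. RNA silencing genes were higher in 2 of 11 cases, AGO18 by 1.55-fold and AGO1B by 1.18-fold, and lower in 1, AGO4A, at 0.867 of wild-type. AGO4B was at 7.36 FPKM in RNAi and 7.37 FPKM in wild-type and did not pass. AGO4A lost its call without either wild-type replicate or RNAi replicate 1 or 3 (highest adjusted p by limma = 0.13), as did AGO1B without either wild-type replicate (highest adjusted p by limma = 0.076). Among histone and DNA methylation genes the demethylase gene JMJ706 was higher by 1.37-fold, and SDG718, DRM2 and JMJ703 were at 0.971, 0.995 and 1.09 of wild-type and did not pass. Circadian clock genes were lower in 3 of 7 cases, PRR37, PRR73 and GI, at 0.732, 0.835 and 0.891 of wild-type, and PRR1 was higher by 1.17-fold. LHY was at 44.4 FPKM in RNAi and 48 FPKM in wild-type and did not pass. PRR1 lost its call without either wild-type replicate or RNAi replicate 1 or 2 (highest adjusted p by limma = 0.14), as did GI without either wild-type replicate or RNAi replicate 1 or 3 (highest adjusted p by limma = 0.12). There were 5 clock genes lower with total recovered reads or without RNAi replicate 2. In flowering time HD1 and EHD3 were higher by 1.38-fold and 1.3-fold and MADS50 and SE5 were at 0.786 and 0.9 of wild-type. MADS50 lost its call without wild-type replicate 1 (adjusted p by limma = 0.073), as did SE5 without either wild-type replicate or RNAi replicate 1 or 3 (highest adjusted p by limma = 0.094). PHYC was at 10.4 FPKM in RNAi and 10.2 FPKM in wild-type and did not pass. Carotenoid and strigolactone genes were lower in 2 of 6 cases, PDS and PSY2, and higher in 1, the receptor gene D14, which did not pass with quantile normalization (adjusted p by limma = 0.14), and PSY3 was at 39.4 FPKM in RNAi and 40.1 FPKM in wild-type and did not pass.

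Among the smallest lists the proline gene OAT was higher by 1.14-fold, and P5CS1 and P5CS2 were at 1.02 and 0.915 of wild-type without passing. OAT lost its call without wild-type replicate 2 or RNAi replicate 1 (highest adjusted p by limma = 0.15). TPP7 of trehalose synthesis was higher by 1.41-fold, and TPP2 did not pass. The invertase gene NIN1 was higher by 1.34-fold and SUS2 by 1.11-fold, AGPS2 was at 0.904 of wild-type, and SUS1 did not pass. SUS2 lost its call without either wild-type replicate or RNAi replicate 1 or 2 (highest adjusted p by limma = 0.24), as did AGPS2 without either wild-type replicate or RNAi replicate 1, 2 or 3 (highest adjusted p by limma = 0.17). MT2A, a metallothionein gene, was higher by 1.17-fold, and MT1B did not pass. The metal pump gene HMA2 was higher by 1.66-fold, and ZIP4 and ZIP5 were at 0.906 and 1.4 of wild-type without passing. MT2A lost its call without either wild-type replicate or RNAi replicate 1 or 3 (highest adjusted p by limma = 0.21), as did HMA2 without wild-type replicate 2 (adjusted p by limma = 0.065).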

How the data were processed

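Polyadenylated RNA of seedlings was sequenced as stranded libraries, per the labels' protocols. The authors' deposited table gives FPKM per locus and library, group means, and for each comparison a log2 fold change and a p-value, and no source used here says whether that p-value is adjusted. The submitters' processing notes name HISAT2, featureCounts, DESeq2, SAMtools, cutadapt, FastQC and deepTools, with neither role nor version. The sources used here give no genome build, annotation or strand setting of the counting, so overlapping genes may share reads.

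The groups were taken from the sample titles. A locus was tested where 2 or more of the 5 libraries reached an FPKM of 1. The second highest FPKM lay from 1 to 1.1 in 397 loci just inside this filter and from 0.9 to 1 in 395 just outside it. The test was limma 3.58.1 (R 4.3.3) on log2(FPKM + 1) (eBayes with a variance trend, 3 residual degrees of freedom, two-sided), with Benjamini-Hochberg adjustment over all 19502 loci and a threshold of 0.05. On that scale the fold change of a low gene comes out too small. Folds of single genes in words are ratios of mean FPKM, and the 1.5-fold and 2-fold limits over all loci and in runs of neighbours are on the log2(FPKM + 1) scale. The procedure was tested on simulated data.

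Whole reads were recovered from the steps of the FPKM values for 34119 of 34119 loci within 0.03 reads. They came to 101.4% to 103.3% of the FPKM denominator in RNAi and 97.3% to 98.3% in wild-type. The denominator was therefore not the total of recovered reads, and it stood differently to that total in the 2 groups.

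Locus identifiers of the table occur 0 times in the reference gene table (assembly ASM3414082v1). Of 576 listed loci 387 were named, where the reference holds the name on that chromosome within 200000 bp of the predicted place. The rule for named genes took from each list the members that passed, by the size of their log2 fold change, then the highest-expressed member that did not pass, and every member of a list of 5 or fewer. It added the 10 largest differences in each direction among loci that passed and whose groups do not overlap, with at most 2 unnamed loci printed a direction. The members and the lists were chosen with earlier results of these data known, and 6 of the 49 lists (cellulose synthases, alpha-amylases, sucrose and starch enzymes, auxin response, CIPK kinases and metal transport) were added after the deposited table had been opened. Lists were given no test of their own. The values of 1 auxin response gene are not reported here.

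Alternatives were a pseudocount of 0.1, no filter, 3 other scalings, limma-voom on recovered reads, all 8 libraries, a replicate block, no variance trend, and leaving out each library.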

Additional observations from a re-analysis of the deposited data

How the results depend on the processing

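The number of loci called stayed within 1.5 times of 8337 under each of the 14 alternatives, from 5979 without wild-type replicate 1 to 9055 with limma-voom on recovered reads. Leaving out 1 library at a time gave 5979 to 8343 loci called, 3603 to 4972 higher and 2340 to 3371 lower, and 249 to 279 at least 2-fold higher and 113 to 132 at least 2-fold lower. The counts of loci at least 2-fold higher and lower moved to 432 and 253 with a pseudocount of 0.1 and to 465 and 287 with limma-voom. The deviations of same-numbered libraries from their group means had correlations of -0.0956 and -0.218 for replicates 1 and 2. With 2 wild-type libraries these deviations mirror each other, so the check cannot decide whether the numbers pair the samples. With a replicate block 6509 loci were called, 3818 higher and 2691 lower. Under it 0 of the 3 antenna genes were lower and 3 of the 8 late embryogenesis abundant genes higher, beside 3 and 6 as reported, and CATA did not pass (limma adjusted p = 0.063). Of the 219 listed genes that passed 150 did so under each of the 14 alternatives and 69 lost the call in at least 1, and none turned direction except with quantile normalization. There 5 of the 219 had the other sign, and none of the 5 passed. These were BZIP23 at -0.008 (log2 fold change), RAB21 at -0.080, PIP2-6 at -0.036, SUS2 at -0.004 and CAB2R at 0.00. Outside the 219, APX2 at -0.18, APX1 at -0.12 and PP2C09 at -0.11 had the other sign and passed there, but not in the reported fit. The causes were not tested. With 3 and 2 libraries a difference that did not pass is not shown to be absent. Names rest on position in another assembly, 1 RNAi line was measured, and RNAi seedlings without PEG were not analysed here.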
